A study of Mus musculus with 6 samples.

Results

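The adipogenic transcription factors described here are 10 genes, *Pparg*, *Rxra*, *Nr1h3*, *Cebpa*, *Cebpb*, *Cebpd*, *Klf15*, *Stat5a*, *Ebf1* and *Zfp423*, taken by name from a table of 16619 genes. All 10 were present under a single entry each, and all 10 were among the 16109 genes that reached 0.5 CPM in at least 3 libraries. RNA was sequenced from eWAT, a visceral white fat depot labelled epididymal, of 6-month-old female mice, with 3 *Prmt5* AKO libraries and 3 WT libraries. *Prmt5* AKO mice carry Adipoq-Cre and both floxed *Prmt5* alleles, and WT mice carry the floxed alleles without Cre. Adipoq-Cre is active in adipocytes, so the other cell types of the depot keep *Prmt5* and add their RNA to every library. The question asked of these genes is whether the transcripts of the adipogenic program differ in eWAT once adipocytes lack the arginine methyltransferase PRMT5.

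Fat cells arise from mesenchymal progenitors through a cascade of transcription factors. C/EBPβ and C/EBPδ act early, after hormonal induction, and are followed by PPARγ and C/EBPα, which sustain each other's transcription and keep the mature adipocyte in its state. PPARγ, encoded by *Pparg*, is a nuclear receptor that binds DNA as a heterodimer with RXRα, the product of *Rxra*, and LXRα, the product of *Nr1h3*, uses the same partner. ZFP423 and EBF1 mark and commit progenitors, and KLF15 and STAT5A are induced during differentiation and also act on *Pparg*.

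The promoters of the 3 genes whose genotypes did not overlap are shown first, because these genes carry most of what follows. They are RefSeq windows of 300 bases on GRCm38.p6, plus strand, which run from 250 bases before to 50 bases after an annotated start. Capitals mark matches, on either strand, to the C/EBP motif TTGCNNAA, the nuclear receptor hexamer AGGTCA or the GC box GGGCGG. The *Pparg* window at chr6:115421816-115422115 belongs to the most downstream of 3 starts with a window and covers the first base of the annotated transcript that encodes the 505-residue form of PPARγ. The *Cebpb* window is at chr2:167688665-167688964, and the *Stat5a* window shown, one of a pair, is at chr11:100860234-100860533.
Pparg: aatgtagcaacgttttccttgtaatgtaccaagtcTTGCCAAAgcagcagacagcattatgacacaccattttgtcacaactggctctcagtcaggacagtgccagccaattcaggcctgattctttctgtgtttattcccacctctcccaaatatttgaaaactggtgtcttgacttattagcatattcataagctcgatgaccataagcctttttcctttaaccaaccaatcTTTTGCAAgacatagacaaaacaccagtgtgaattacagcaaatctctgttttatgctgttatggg
Cebpb: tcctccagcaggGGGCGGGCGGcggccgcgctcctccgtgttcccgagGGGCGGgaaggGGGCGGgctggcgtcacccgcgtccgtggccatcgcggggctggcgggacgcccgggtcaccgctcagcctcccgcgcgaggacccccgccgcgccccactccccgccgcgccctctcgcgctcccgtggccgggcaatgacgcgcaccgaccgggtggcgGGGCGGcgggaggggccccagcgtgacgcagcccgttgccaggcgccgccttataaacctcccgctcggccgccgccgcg
Stat5a: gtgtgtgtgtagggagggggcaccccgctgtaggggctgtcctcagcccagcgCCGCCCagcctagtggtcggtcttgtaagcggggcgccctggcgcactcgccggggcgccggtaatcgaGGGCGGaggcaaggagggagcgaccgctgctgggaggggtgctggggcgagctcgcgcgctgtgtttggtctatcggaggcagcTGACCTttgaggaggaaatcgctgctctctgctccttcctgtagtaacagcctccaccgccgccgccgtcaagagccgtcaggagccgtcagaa

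The *Pparg* window held 2 matches to the C/EBP motif, at 215 and 16 bases before the start, and no GC box. Of all 32851 windows, 10.8% held a C/EBP match. Among the 16 windows of the 9 factors with an entry, only this one and a *Zfp423* window did. *Cebpb* had 5 GC boxes, 2 of which shared bases, in a window of 80.7% G and C, against a median of 52.7% over all windows and 40.3% in the *Pparg* window shown. A GC box was present in 8 of the 16 windows and in 35.7% of all windows. The nuclear receptor hexamer occurred in 6 of the 16 windows, those of *Pparg*, *Rxra*, *Stat5a* and *Zfp423*, and in 16.3% of all windows. *Klf15* alone held the E-box CACGTG, 3 times in 1 window, a motif of 7.15% of all windows. The cAMP response element TGACGTCA, present in 1.79% of all windows, occurred in 0 of the 16. These matches describe the letters of the windows and say nothing about binding.

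The libraries held 18731215 to 27445096 reads over the genes of the table. Values are given as CPM, each gene's reads scaled to an effective library size that carries 1 scaling factor per library. Differences are log2 fold changes of *Prmt5* AKO over WT from limma on log2(CPM + 0.5), with a standard error (SE) and a p-value adjusted by Benjamini-Hochberg over all 16109 genes. A call required a log2 fold change of over 0.5 in size together with an adjusted p below 0.05. No source states that each library is a separate mouse, so the p-values weigh differences against a spread between libraries that may be technical. *Prmt5* itself had 14.6, 22.0 and 28.5 CPM in the *Prmt5* AKO libraries, against 36.6, 59.7 and 39.7 CPM in WT, without overlap (exact two-sided permutation p = 0.1, the smallest that 3 against 3 libraries allow). Its log2 fold change was -1.06 (SE 0.34, limma adjusted p = 0.436), so even the deleted gene was not called. A first principal component held 64.5% of the variance, and on it *Prmt5* AKO replicate 1, at -53.3, lay between WT replicates 1 (-74.6) and 3 (-40.2), away from *Prmt5* AKO replicates 2 (61.0) and 3 (81.0) and WT replicate 2 (26.1). Adipocyte markers summed to 44755 to 57514 CPM in *Prmt5* AKO eWAT and 56032 to 67716 CPM in WT eWAT, with none of the 12 at 0. Of these markers, 6 had a positive and 6 a negative log2 fold change, with a median of 0.09.

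None of the 10 factors was called, and neither was any of the other genes (0% of 16109). The smallest adjusted p among the factors was 0.542. At an unadjusted p under 0.05 limma found 1 of the 10, *Cebpb*, where the same threshold held for 8.72% of all genes (4.79% higher and 3.93% lower in *Prmt5* AKO). For 3 of the 10, *Cebpb*, *Stat5a* and *Pparg*, the libraries of the genotypes did not overlap, against 14.4% of all genes. *Cebpb* and *Stat5a* had every *Prmt5* AKO library above every WT library, as did 8.16% of all genes, and *Pparg* had every *Prmt5* AKO library below, as did 6.28%. Log2 fold changes were positive for 7 of the 10 and for 48.1% of all genes. The median log2 fold change of the factors was 0.23, beside -0.03 over all genes, and the median of the absolute values was 0.45 beside 0.40. On the recovered reads, the quasi-likelihood and likelihood ratio tests of edgeR, DESeq2 and limma-voom also called 0 of the 10, each with *Cebpb* alone at an unadjusted p under 0.05. Over all genes these 4 tools called 0, 162, 301 and 0, with 8.37%, 9.07%, 10.7% and 8.64% at an unadjusted p under 0.05.

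**Figure D1:**
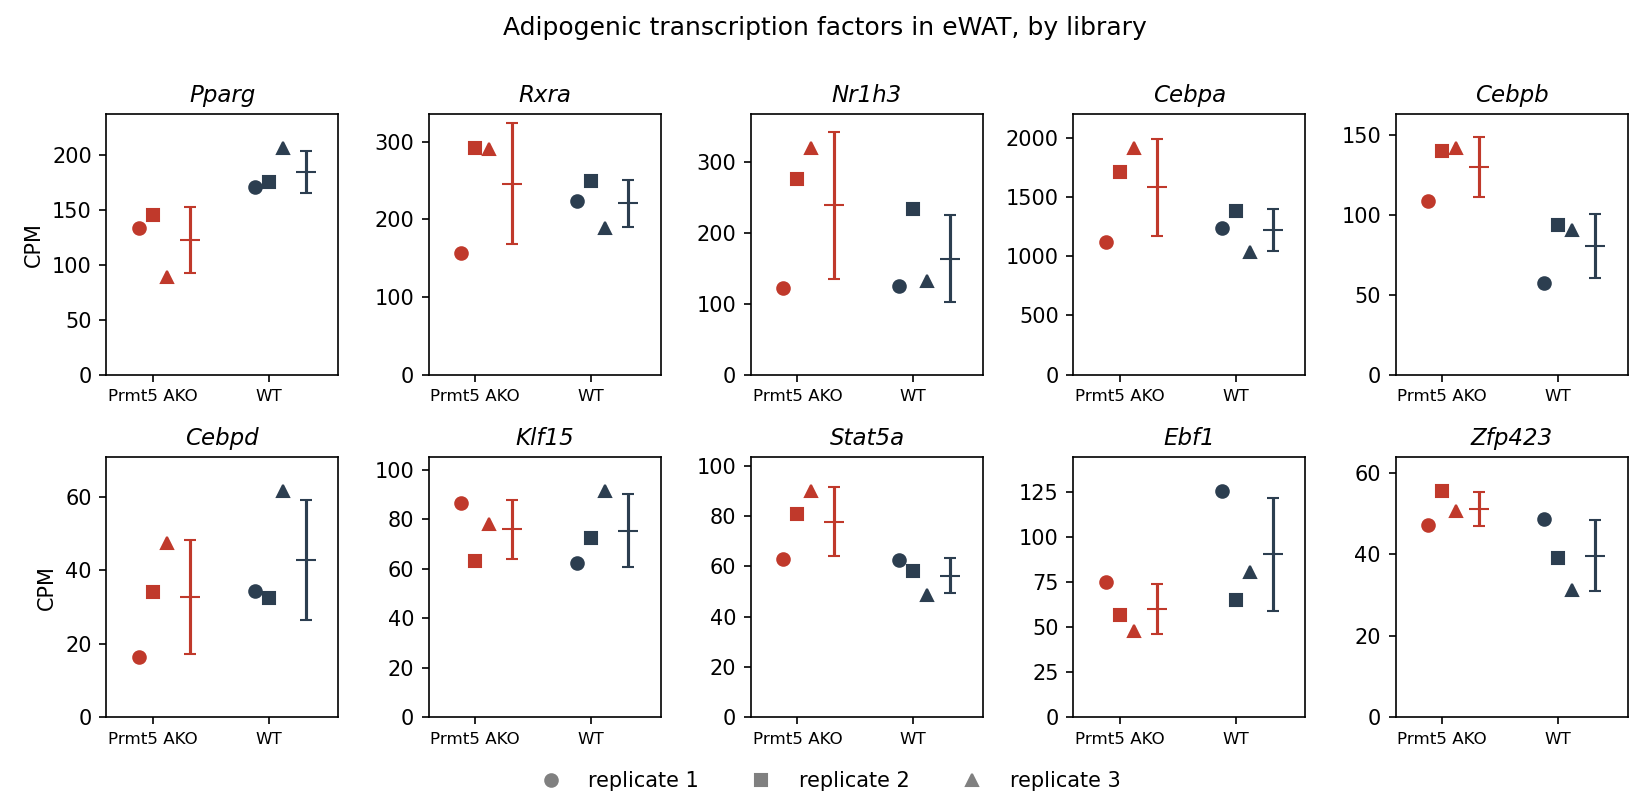
CPM of the 10 factors (y axis, from 0) in the 3 *Prmt5* AKO libraries (red, left) and the 3 WT libraries (dark, right), with circles, squares and triangles for replicates 1, 2 and 3 and a bar for the mean ± SD (n = 3). The genotypes are separate for *Pparg*, *Cebpb* and, by less than 1 CPM, *Stat5a*, and overlap in the other 7 panels.

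*Pparg*, the receptor for thiazolidinediones and the factor without which white fat does not form, was lower in every *Prmt5* AKO library. It had 134, 146 and 88.7 CPM in *Prmt5* AKO replicates 1 to 3, against 171, 176 and 206 CPM in WT replicates 1 to 3. The highest *Prmt5* AKO value thus stayed below the lowest WT value, and *Prmt5* AKO replicate 3 was the lowest of the 6 libraries. The means were 123 ± 30.1 CPM in *Prmt5* AKO and 184 ± 19.1 CPM in WT (SD, n = 3 each), with a log2 fold change of -0.61 (SE 0.28, 95% interval -1.26 to 0.03, limma adjusted p = 0.581). The gene spans chr6:115360951-115490399 on the plus strand of GRCm38. The values count reads over the whole gene, so its transcripts from different starts are not told apart.

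*Rxra* encodes the partner of both PPARγ and LXRα. Its values were 156, 292 and 290 CPM in *Prmt5* AKO and 224, 249 and 189 CPM in WT. *Prmt5* AKO held both the highest and the lowest library, and the log2 fold change was 0.11 (SE 0.33, 95% interval -0.64 to 0.86, limma adjusted p = 0.878). Its sign turned (to -0.041 and -0.037) when either *Prmt5* AKO replicate 2 or *Prmt5* AKO replicate 3 was left out. *Nr1h3*, the oxysterol receptor LXRα, which drives cholesterol efflux and fatty acid synthesis genes, spread 2.62 times between its lowest and highest library. It had 122, 276 and 320 CPM in *Prmt5* AKO and 125, 235 and 132 CPM in WT. *Prmt5* AKO replicate 1 lay with WT replicates 1 and 3 at the low end and WT replicate 2 with the other *Prmt5* AKO libraries, so the genotypes overlapped (log2 fold change 0.49, SE 0.43, limma adjusted p = 0.645).

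The ratio of *Pparg* to *Rxra*, each per kilobase of annotated exons, was 1.58, 0.923 and 0.566 in *Prmt5* AKO and 1.42, 1.31 and 2.02 in WT. *Prmt5* AKO replicates 2 and 3 were below every WT library and *Prmt5* AKO replicate 1 was inside the WT range. The ratio of *Nr1h3* to *Rxra* was 1.69, 2.06 and 2.40 in *Prmt5* AKO and 1.21, 2.05 and 1.51 in WT, also with overlap. A ratio within a library does not depend on the scaling factor of that library.

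*Cebpa*, which holds mature adipocytes insulin sensitive and sustains *Pparg*, was the most abundant of the 10, and ranked 74 among all genes by mean CPM. It had 1125, 1711 and 1917 CPM in *Prmt5* AKO and 1244, 1388 and 1037 CPM in WT. *Prmt5* AKO replicates 2 and 3 were above all WT libraries, and *Prmt5* AKO replicate 1 was below 2 of them. The means were 1584 ± 411 CPM in *Prmt5* AKO and 1223 ± 176 CPM in WT (log2 fold change 0.35, SE 0.37, limma adjusted p = 0.687).

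*Cebpb*, a factor of the first hours of differentiation that also answers cAMP, glucocorticoid and inflammatory signals, was higher in every *Prmt5* AKO library. It had 109, 140 and 142 CPM in *Prmt5* AKO, against 57.4, 93.7 and 90.4 CPM in WT. The lowest *Prmt5* AKO value lay above the highest WT value, and WT replicate 1 stood below the rest. The means were 130 ± 18.6 CPM in *Prmt5* AKO and 80.5 ± 20.1 CPM in WT, a log2 fold change of 0.71 (SE 0.29, 95% interval 0.05 to 1.37, limma adjusted p = 0.542). *Cebpb* has a single exon at chr2:167688915-167690418, plus strand. Of its exon bases, 312 (20.7%) also lie in exons of *Tmem189* on the opposite strand, which had a log2 fold change of 0.57 (SE 0.38). The strand setting of the counting is not given in the sources used here, so the reads of the shared stretch cannot be told apart.

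*Cebpd*, the other early C/EBP and a target of glucocorticoids, had the lowest mean CPM of the 10 over all 6 libraries, with 356 to 1729 reads per library behind its values. In WT alone *Zfp423* was lower by mean CPM. Its CPM were 16.5, 34.2 and 47.4 in *Prmt5* AKO and 34.4, 32.4 and 61.5 in WT. The genotypes overlapped widely, with *Prmt5* AKO replicate 1 as the lowest library and WT replicate 3 as the highest, 3.72 times apart (log2 fold change -0.44, SE 0.44, limma adjusted p = 0.668). *Cebpd* shares 562 exon bases (15.0%) with *Spidr* on the opposite strand, which averaged 3.89 ± 1.81 CPM in *Prmt5* AKO and 7.21 ± 2.15 CPM in WT. The 2 early C/EBP genes thus had log2 fold changes of opposite sign.

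The ratio of *Cebpb* to *Cebpa* per kilobase was 0.169, 0.143 and 0.130 in *Prmt5* AKO and 0.081, 0.118 and 0.153 in WT, with overlap through WT replicate 3. The ratio of *Cebpd* to *Cebpa* was 0.0103, 0.0140 and 0.0174 in *Prmt5* AKO and 0.0194, 0.0164 and 0.0417 in WT. Here *Prmt5* AKO replicate 3 lay above WT replicate 2, so these genotypes overlapped too.

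*Stat5a*, which carries growth hormone and prolactin signals and is induced as preadipocytes differentiate, had 62.8, 80.6 and 89.9 CPM in *Prmt5* AKO and 62.4, 58.0 and 48.6 CPM in WT. All *Prmt5* AKO libraries were above all WT libraries, but replicate 1 of both genotypes lay less than 1 CPM apart. The means were 77.8 ± 13.8 CPM in *Prmt5* AKO and 56.4 ± 7.04 CPM in WT (log2 fold change 0.45, SE 0.26, 95% interval -0.14 to 1.04, limma adjusted p = 0.601). With upper quartile scaling the genotypes of *Stat5a* overlapped. *Stat5a* abuts *Stat3* on the opposite strand, with 72 shared exon bases (1.01%), and *Stat3* had a log2 fold change of 0.44 (SE 0.24). *Stat5b*, the paralog beside it, was at 76.3 ± 8.35 CPM in *Prmt5* AKO and 73.5 ± 9.85 CPM in WT (log2 fold change 0.06, SE 0.24).

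*Klf15*, a glucocorticoid-induced Krüppel-like factor that promotes *Pparg* and *Slc2a4* transcription, had 86.7, 63.1 and 78.1 CPM in *Prmt5* AKO and 62.3, 72.5 and 91.4 CPM in WT. The genotypes were interleaved, and the log2 fold change of 0.02 (SE 0.26, 95% interval -0.59 to 0.63, limma adjusted p = 0.978) was the smallest of the 10 in size. The interval still allows a difference of over 0.5 either way. Its means were 75.9 ± 11.9 CPM in *Prmt5* AKO and 75.4 ± 14.8 CPM in WT.

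The factors tied to progenitors differed in sign. *Ebf1* had 75.3, 56.6 and 48.0 CPM in *Prmt5* AKO and 125, 65.1 and 80.6 CPM in WT. WT replicate 1 was the highest library, and *Prmt5* AKO replicate 1 lay above WT replicate 2, so the genotypes overlapped (log2 fold change -0.56, SE 0.32, limma adjusted p = 0.602). *Zfp423*, which also restrains thermogenic genes in white adipocytes, had 47.2, 55.6 and 50.7 CPM in *Prmt5* AKO and 48.8, 39.1 and 31.3 CPM in WT. Only WT replicate 1 reached into the *Prmt5* AKO range, above *Prmt5* AKO replicate 1 (log2 fold change 0.38, SE 0.26, limma adjusted p = 0.613). Bulk RNA does not separate fewer cells of a type from less RNA per cell.

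**Figure D2:**
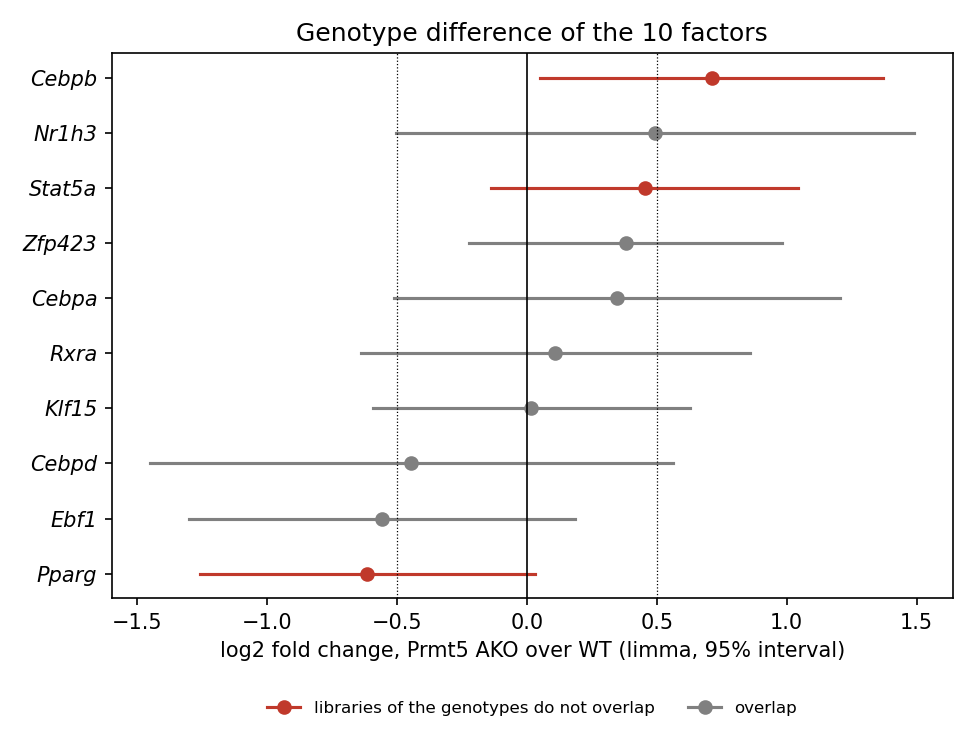
Log2 fold change of *Prmt5* AKO over WT for each factor (x axis), ordered from the highest to the lowest, with its 95% interval from limma; dotted lines mark 0.5 in either direction and red marks the 3 genes whose libraries do not overlap. Points run from 0.71 for *Cebpb* to -0.61 for *Pparg*, and *Cebpb* alone has an interval that leaves out 0.

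Per kilobase of annotated exons, *Cebpa* had the highest level in both genotypes, 601 ± 156 CPM per kilobase in *Prmt5* AKO and 464 ± 66.9 in WT. *Nr1h3* came next in both, with 95.2 ± 41.3 CPM per kilobase in *Prmt5* AKO and 65.1 ± 24.5 in WT. After these, *Prmt5* AKO eWAT had *Cebpb* at 86.5 ± 12.4, *Rxra* at 45.1 ± 14.2 and *Pparg* at 41.6 ± 10.2 CPM per kilobase, whereas WT eWAT had *Pparg* at 62.5 ± 6.48, *Cebpb* at 53.5 ± 13.3 and *Rxra* at 40.4 ± 5.54. *Pparg* thus ranked 5 of 10 in *Prmt5* AKO and 3 of 10 in WT. Neighbours closer than the larger of their SDs were *Nr1h3* and *Cebpb*, and *Rxra* and *Pparg*, in *Prmt5* AKO, and in WT the whole run from *Nr1h3* over *Pparg* and *Cebpb* to *Rxra*. In both genotypes the same held along the 4 lowest factors. *Klf15* ranked 6 in both, at 27.2 ± 4.28 CPM per kilobase in *Prmt5* AKO and 27.0 ± 5.30 in WT, and the other 4, *Stat5a*, *Zfp423*, *Cebpd* and *Ebf1*, lay between 6.15 and 11.4 in either genotype. Per kilobase of coding sequence, *Cebpa* stayed first in both genotypes and *Pparg* ranked 5 in *Prmt5* AKO and 4 in WT. *Rxra* then ranked 3 in *Prmt5* AKO, ahead of *Cebpb*, and 2 in WT, ahead of *Nr1h3*.

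The factors were also compared by their pattern over the 6 libraries, in which the difference between genotypes is included. The likeness used here is the root mean square difference between the log2 values of a pair of genes after each is centred on its own mean, so 0 is an identical pattern. The closest pairs were *Cebpa* with *Stat5a* (0.125), *Cebpa* with *Rxra* (0.146) and *Stat5a* with *Zfp423* (0.152). *Pparg* was nearest to *Ebf1* (0.358), and *Ebf1* and *Nr1h3* were farthest apart (0.97). These are descriptions over 6 libraries that share their scaling.

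**Figure D3:**
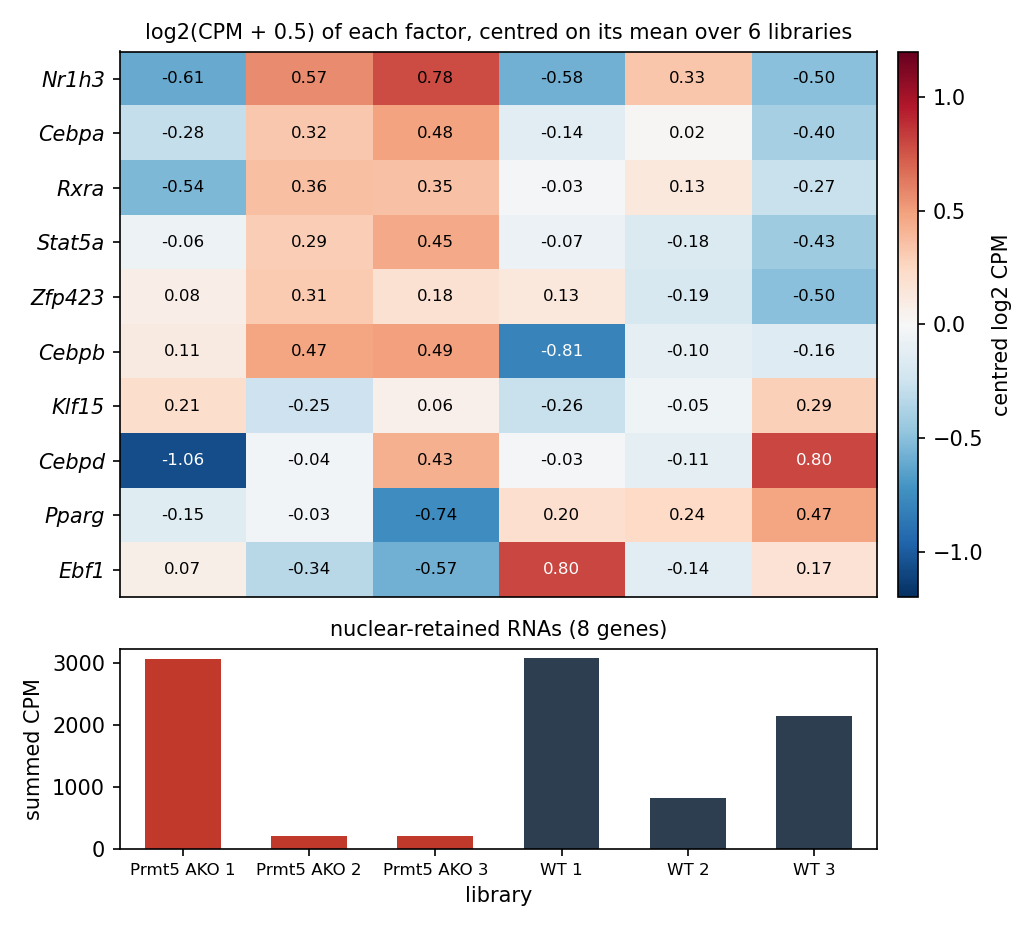
Top, log2(CPM + 0.5) of each factor centred on its mean over the 6 libraries (colour and number), with the 3 *Prmt5* AKO libraries left of the 3 WT libraries. Bottom, the summed CPM of 8 nuclear-retained RNAs in the same libraries: the 3 libraries with sums of 3067, 3075 and 2135 are those in which *Nr1h3* is lowest (-0.61, -0.58 and -0.50).

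RNAs kept in the nucleus, such as *Neat1*, moved with this pattern. Their summed level over 8 genes was 3067, 197 and 205 CPM in *Prmt5* AKO and 3075, 811 and 2135 CPM in WT, with all 8 log2 fold changes negative. *Nr1h3* was at 122 to 132 CPM in the 3 libraries with the highest sums and at 235 to 320 CPM in the other 3. *Cebpa* showed the same order of high and low libraries, with 1037 to 1244 CPM against 1388 to 1917 CPM, and *Rxra* likewise, with 156 to 224 CPM against 249 to 292 CPM. *Ebf1* separated the other way, with 75.3 to 125 CPM in the 3 libraries of the highest sums against 48.0 to 65.1 CPM. *Pparg* and *Cebpb* did not separate along that line: *Pparg* in *Prmt5* AKO replicates 1 and 2 (134 and 146 CPM) and *Cebpb* in WT replicates 2 and 3 (93.7 and 90.4 CPM) lay close together in libraries with high and low sums. *Stat5a*, at 48.6 to 62.8 CPM in the 3 libraries of the highest sums against 58.0 to 89.9 CPM, did not separate either. *Zfp423*, *Klf15* and *Cebpd* also overlapped. Along the principal component given above, *Prmt5* AKO replicate 1 and WT replicates 1 and 3 likewise had negative scores, and the other 3 libraries positive ones. The split was thus not limited to these factors. How many of all genes separate this way was not counted. The part of nuclear RNA content in the differences between genotypes was not tested.

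In the split by nuclear-retained RNAs, *Prmt5* AKO replicate 1 lay with WT replicates 1 and 3, unlike the other *Prmt5* AKO libraries. Without *Prmt5* AKO replicate 1, a choice made after seeing the data, the genotypes did not overlap for 8 of the 10 factors, all but *Klf15* and *Cebpd*. The same then held for 56.8% of all genes. Limma then found *Cebpb*, *Nr1h3*, *Stat5a*, *Pparg* and *Ebf1* at an unadjusted p under 0.05, as it did 35.3% of all genes, and called none of the 10. Without that library *Nr1h3* had a log2 fold change of 0.92 (SE 0.33), *Cebpb* of 0.84 (SE 0.29) and *Pparg* of -0.69 (SE 0.29), with limma adjusted p-values of 0.094, 0.088 and 0.128. *Cebpd* was then at -0.02. Without *Prmt5* AKO replicate 3, *Nr1h3* was at 0.23, *Cebpa* at 0.19 and *Cebpd* at -0.77. Without WT replicate 1, *Ebf1* was at -0.29.

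For each factor the 3 genes of at least 1 CPM with the most similar pattern were looked up among 14506 genes. *Cebpa* was followed most closely by *Calr*, an endoplasmic reticulum chaperone (0.029), *Atic*, an enzyme of purine synthesis (0.034), and *Acvrl1*, a receptor of the TGF-β family (0.037). *Pparg* resembled *Uap1* (0.078), *Vwc2* (0.079) and *Rpf2* (0.083). *Cebpb* resembled the ubiquitin ligase *Rnf8* (0.054), *Nudt13* (0.065) and *Arfip2* (0.076).

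*Zfp423* was tracked by *Sec16a* (0.024), *Mta3* (0.038) and the lipid droplet gene *Plin1* (0.043), and *Stat5a* by *Plec*, which encodes the cytolinker plectin (0.034), *Fto* (0.053) and *Sgsm2* (0.059). *Nr1h3* lay near *Eif2b2*, *Rnpepl1* and *Agpat1* (0.060 to 0.069), *Rxra* near *Saal1*, *Osbpl5* and *Ubb-ps* (0.044 to 0.053), and *Ebf1* near *Wwc2*, the Wnt receptor gene *Fzd7* and *Fam129a* (0.050 to 0.071). *Klf15* and *Cebpd* had looser neighbours, *Aopep*, *Tpmt* and *Rabl2* (0.062 to 0.105) and *Smtnl2*, *Timd4* and *Vcpkmt* (0.172 to 0.221). No other factor of the 10 was among these neighbours.

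The genes that PPARγ activates were spread to both sides of 0. Of 31 PPARγ target genes kept, 19 had a positive and 12 a negative log2 fold change, with a median of 0.23 beside -0.03 over all genes and 0 called. At an unadjusted p under 0.05, 4 were higher in *Prmt5* AKO and 3 were lower. The higher ones include *Cidea*, a lipid droplet protein abundant in brown fat, with 174, 186 and 128 CPM in *Prmt5* AKO and 21.6, 11.2 and 59.8 CPM in WT, and the glycerol-3-phosphate dehydrogenase *Gpd1*, at 1375 ± 272 CPM in *Prmt5* AKO and 688 ± 130 CPM in WT. *Plin2*, a coat protein of lipid droplets, had a log2 fold change of 0.84. The other was *Ucp1*, the uncoupling protein of brown fat, named here after its values were seen, with 265, 135 and 73.9 CPM in *Prmt5* AKO and 14.2, 0.265 and 84.8 CPM in WT. All 8 brown adipocyte markers had positive log2 fold changes (6 at an unadjusted p under 0.05), with sums of 377 to 806 CPM in *Prmt5* AKO and 105 to 306 CPM in WT. Without *Cidea* and *Ucp1*, which are on both lists, 29 PPARγ targets had a median of 0.20, with 2 higher and 3 lower at an unadjusted p under 0.05.

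The 3 lower PPARγ targets include abundant adipocyte genes. The lipid droplet gene *Plin4* was at 994 ± 133 CPM in *Prmt5* AKO and 2536 ± 647 CPM in WT, and *Cfd*, which encodes the adipokine adipsin, at 5366 ± 1141 CPM in *Prmt5* AKO and 13218 ± 2720 CPM in WT. *Hsd11b1*, which regenerates active glucocorticoid, had 25.7, 21.2 and 22.9 CPM in *Prmt5* AKO and 43.4, 44.3 and 40.6 CPM in WT (log2 fold change -0.87, SE 0.24, limma adjusted p = 0.382). The genotypes of these 3 did not overlap. *Adipoq*, which drives the Cre, was at 4462 ± 1145 CPM in *Prmt5* AKO and 3803 ± 441 CPM in WT.

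Among 13 LXR target genes kept, 6 log2 fold changes were positive and 7 negative, with a median of -0.001. *Scd1*, the stearoyl-CoA desaturase, stood out with 3009, 4303 and 4319 CPM in *Prmt5* AKO and 23618, 22902 and 22194 CPM in WT (log2 fold change -2.58, SE 0.55, limma adjusted p = 0.307). *Mylip* and *Acaca* also had every *Prmt5* AKO library below every WT library, with log2 fold changes of -0.72 and -0.79. *Abcg4*, a sterol transporter, was at 9.35 ± 4.12 CPM in *Prmt5* AKO and 2.14 ± 0.775 CPM in WT, and *Apoe* was higher without overlap at a log2 fold change of 0.27.

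STAT5 target genes gave 4 positive and 5 negative log2 fold changes among 9 kept, a median of -0.001, and 0 at an unadjusted p under 0.05. *Cish*, the classical STAT5 feedback inhibitor, had the lowest log2 fold change of this list, -0.88 (SE 0.44), with overlap between the genotypes. Of 10 C/EBP acute-phase target genes kept, 8 were positive, with a median of 0.26. *Saa3*, an acute-phase protein gene of adipocytes and macrophages, had 85.5, 73.2 and 41.0 CPM in *Prmt5* AKO and 11.4, 11.9 and 8.54 CPM in WT (log2 fold change 2.54, SE 0.34, limma adjusted p = 0.106). *Il1rn*, *Hp* and *Lcn2* were also higher in every *Prmt5* AKO library, with log2 fold changes of 1.34, 0.73 and 0.72, and *Steap4* was the 1 gene of this list lower at an unadjusted p under 0.05 (log2 fold change -1.09).

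Beside these, macrophage and myeloid markers summed to 1900 to 3262 CPM in *Prmt5* AKO and 1262 to 2534 CPM in WT, with 10 of 12 log2 fold changes positive and none of the 12 at 0. All 9 T and NK cell markers were positive as well, with sums of 47.9 to 134 CPM in *Prmt5* AKO and 16.7 to 33.7 CPM in WT. Immune cells also express *Cebpb* and *Nr1h3*, and the part of these cells in the values of either gene was not tested.

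**Figure D4:**
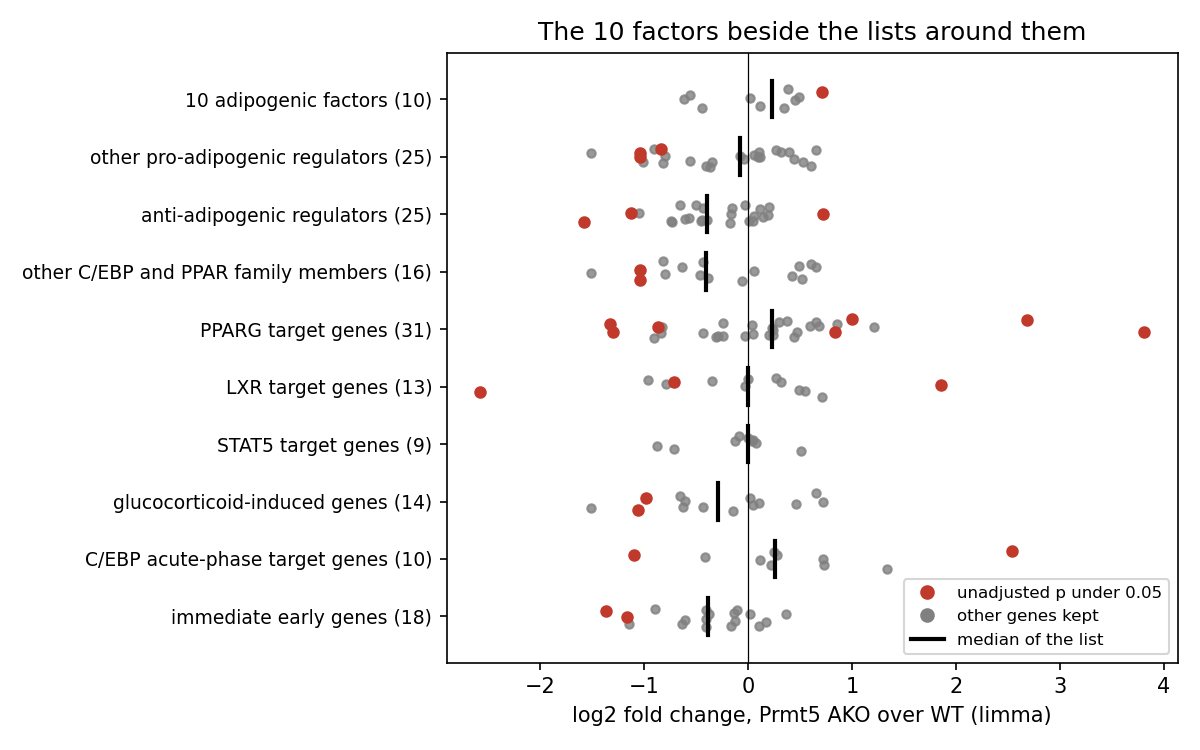
Log2 fold change of *Prmt5* AKO over WT (x axis) for each gene kept of the 10 factors and 9 lists around them (rows, with the number of genes), with red for an unadjusted p under 0.05 in limma, grey for the rest and a black line for the median of each list. Medians lie between -0.41 and 0.26, and the widest spreads are those of the PPARγ and LXR target genes.

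Genes induced by glucocorticoids and immediate early genes were described as 2 lists, while the signals that induce the early C/EBP genes were not measured. Of 14 glucocorticoid-induced genes kept, 6 were positive and 8 negative, with a median of -0.29. *Fkbp5*, a sensitive glucocorticoid target, had 42.0, 45.7 and 65.9 CPM in *Prmt5* AKO and 101, 83.8 and 117 CPM in WT (log2 fold change -0.98, SE 0.28, limma adjusted p = 0.383). *Errfi1* and *Sgk1* were lower without overlap at -1.06 and -0.63, whereas *Per1* and *Tsc22d3* were at 0.10 and 0.01. *Lcn2*, which is on this list too, was the 1 gene higher without overlap, at 0.72. Of 18 immediate early genes kept, 14 had negative log2 fold changes, with a median of -0.39. *Nr4a1* was at 6.66 ± 1.53 CPM in *Prmt5* AKO and 17.0 ± 9.77 CPM in WT, *Egr1* at 15.8 ± 2.58 CPM in *Prmt5* AKO and 49.9 ± 35.8 CPM in WT, and *Jun* had a log2 fold change of -0.40. *Cebpb*, itself an early response gene, was on the other side of 0.

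Relatives of the 10 factors gave 6 positive and 10 negative log2 fold changes of 16, with a median of -0.41 and 0 called. *Rxrg* was higher in every *Prmt5* AKO library (19.4 ± 3.30 CPM in *Prmt5* AKO, 13.5 ± 1.05 CPM in WT), and *Rxrb* and *Nr1h2*, the paralogs of *Rxra* and *Nr1h3*, had log2 fold changes of 0.65 and 0.61. *Klf5*, an early Krüppel-like activator of *Pparg*, was at 1.41 ± 0.275 CPM in *Prmt5* AKO and 3.43 ± 0.527 CPM in WT (log2 fold change -1.04, SE 0.32, limma adjusted p = 0.425). *Ebf2*, which directs brown and beige fate, was at -0.80 (SE 0.46) beside -0.56 for *Ebf1*.

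Other regulators known to promote adipogenesis were split, with 11 positive and 14 negative among 25 kept and a median of -0.08. This list shares genes with that of the relatives, *Klf5* among them, so their counts are not separate. *Klf5*, *Klf4* and *Bmp4* were lower at an unadjusted p under 0.05, *Klf4* with overlap. *Bmp4*, a commitment signal, was at 6.56 ± 0.269 CPM in *Prmt5* AKO and 12.5 ± 3.54 CPM in WT. *Zfp467*, *Nfia* and *Stat6* were higher in every *Prmt5* AKO library, with log2 fold changes of 0.39, 0.32 and 0.26.

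Regulators that restrain adipogenesis had 17 negative and 8 positive log2 fold changes among 25 kept and a median of -0.40. At an unadjusted p under 0.05, 1 was higher in *Prmt5* AKO and 2 were lower. Without overlap between the genotypes, 1 was higher and 4 were lower. *Wnt10b*, the Wnt ligand that blocks *Pparg* and *Cebpa* induction, had 1.02, 2.14 and 1.32 CPM in *Prmt5* AKO and 6.32, 4.81 and 4.91 CPM in WT (log2 fold change -1.58, SE 0.35, limma adjusted p = 0.317). *Bhlhe40* and *Foxo1* were also lower in every *Prmt5* AKO library, at -1.12 and -0.45.

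Markers of the progenitor pool, where *Zfp423* and *Ebf1* act, were mostly lower. Of 14 progenitor and fibroblast markers, 12 had negative log2 fold changes and 6 were lower at an unadjusted p under 0.05, with sums of 7832 to 8491 CPM in *Prmt5* AKO and 10572 to 15336 CPM in WT and none at 0. *Ebf1* had its highest value, 125 CPM, in WT replicate 1, the library with the largest sum of these markers (15336 CPM). *Prmt5* AKO replicate 3 was the lowest library for both, with *Ebf1* at 48.0 CPM and a sum of 7832 CPM. Between these ends the orders differed. *Ebf1* was at 65.1 CPM in WT replicate 2, with a sum of 11257 CPM. It was at 75.3 CPM in *Prmt5* AKO replicate 1, with a sum of 8466 CPM. *Zfp423*, in contrast, had a positive log2 fold change. The part of the progenitor share in the values of *Ebf1* was not tested.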

How the data were processed

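Total RNA of eWAT was polyA-enriched and sequenced on an Illumina HiSeq as paired ends. The submitters' processing notes name FastQC 0.11.9, Trim Galore 0.6.0, STAR 2.7.10a on GRCm38 and featureCounts of Subread 2.0.1, and the study's methods add a filter for uniquely mapped pairs and edgeR. A batch correction is mentioned without naming a batch. The authors deposited 1 signal column per library, in which each gene's reads are divided by that library's effective size to give CPM, and 100% of its values were whole multiples of 1 read, within 0.05 of a read, so reads were recovered for the tests that need counts. Columns of the authors' own fold changes and p-values were not used. Plain CPM had been assumed when the tests were chosen, and limma on log values fits both units.

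Values were compared by limma 3.58.1 (lmFit, eBayes with trend) on log2(CPM + 0.5), a scale that understates the change of low genes, with genotype as the only term and all 6 libraries in the fit. Genes at 0.5 CPM in at least 3 libraries were kept. Alternatives were pseudocounts of 0.1 and 2, no filter or a filter at 2, other scalings, adjusted p alone, the replicate number as a block, limma-voom, edgeR 4.0.16, DESeq2 1.42.0 and each library left out in turn.

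The members and lists were chosen with earlier results of these data known. Named from each pathway list were up to 3 genes per direction with the smallest p among those of at least 1 CPM whose genotypes did not overlap, from marker lists the most abundant, and for each factor its 3 most similar genes. For 1 such gene no value is reported here. Further genes, among them *Cish*, *Klf4*, *Steap4*, *Per1* and *Tsc22d3*, were named outside this rule. Gene positions, exon lengths and overlaps come from GENCODE M21 on GRCm38, and promoter windows from RefSeq, which matched 9 of the 10 factors. R 4.3.3, Python 3.11.15, pandas 2.3.3, scipy 1.17.1 and matplotlib 3.10.9 were used.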

Additional observations from a re-analysis of the deposited data

How the results depend on the processing

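No alternative called any of the 10 factors, while the count over all 16109 genes, 0 by limma, was 162 by edgeR's likelihood ratio test and 301 by DESeq2. With a block for the replicate number, 129 genes were called by limma, 53 by the quasi-likelihood test of edgeR and 682 by the likelihood ratio test. The factors at an unadjusted p under 0.05, 1 without the block, were then 3 (*Cebpb*, *Pparg* and *Ebf1*), 1 and 2. The same threshold then held for 19.8%, 17.2% and 20.1% of all genes. No source says whether the numbers pair the samples, and the deviations from the genotype means do not settle it. Same-numbered libraries correlated at 0.68, 0.57 and -0.11. *Prmt5* AKO replicates 1 and 2 correlated best with the WT library of their number, but replicate 3 did so with WT replicate 2 (0.53). Leaving out 1 library gave 0 to 84 called genes and 0 to 5 factors at an unadjusted p under 0.05, both highest without *Prmt5* AKO replicate 1. The share of all genes at that p ran from 3.98% to 35.3%. The overlap of the genotypes was counted again without *Prmt5* AKO replicate 1 alone, and 8 factors then had none, as did 56.8% of all genes. No factor reached that p without *Prmt5* AKO replicate 2, *Prmt5* AKO replicate 3, WT replicate 1 or WT replicate 3. The log2 fold change of *Klf15* turned to -0.041 on plain library totals and -0.017 on upper quartile factors and ranged from -0.11 to 0.16 with a library left out, and that of *Rxra* from -0.041 to 0.41. The other 8 factors kept their sign under all 21 settings, but their sizes moved: the ranges were -0.75 to -0.40 for *Pparg*, 0.49 to 0.84 for *Cebpb*, 0.34 to 0.60 for *Stat5a*, 0.22 to 0.54 for *Zfp423*, 0.19 to 0.58 for *Cebpa*, 0.23 to 0.92 for *Nr1h3*, -0.77 to -0.29 for *Ebf1* and -0.77 to -0.02 for *Cebpd*, with the ends set by leaving out a library. Levels per RefSeq protein length were not run, and coding length of annotated transcripts, chosen after seeing the data, took their place. With 3 libraries per genotype the median SE of the factors was 0.30 on the log2 scale.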

Other observations

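Other cell types of the depot, whose RNA the libraries also hold, differed in direction. All 9 mesothelium markers had negative log2 fold changes, with sums of 102 to 511 CPM in *Prmt5* AKO and 304 to 447 CPM in WT, led by the uroplakin gene *Upk3b* at 174 ± 127 CPM in *Prmt5* AKO and 186 ± 45.1 CPM in WT. Smooth muscle and pericyte markers were positive in 7 of 8, 4 of them at an unadjusted p under 0.05 in limma, with sums of 1364 to 2688 CPM in *Prmt5* AKO and 861 to 1496 CPM in WT. *Acta2*, smooth muscle actin, was the most abundant, at 808 ± 338 CPM in *Prmt5* AKO and 366 ± 98.7 CPM in WT. Endothelial markers were split, with 4 of 9 positive, and so were B cell markers, with 4 of 9. None of these genes was called.

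*Cox8b*, a subunit of cytochrome oxidase in brown fat and muscle, was the most abundant brown adipocyte marker, at 199 ± 67.3 CPM in *Prmt5* AKO and 82.3 ± 32.2 CPM in WT (log2 fold change 1.29, SE 0.41). *Prmt5* AKO replicate 1 had the highest sum of the 8 brown markers (806 CPM) and WT replicate 1 the lowest (105 CPM).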
